A study of Mus musculus with 10 samples.

Results

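Mt1 and Mt2 encode the metallothioneins of liver, and the array used here carried 1 probe set for each, among 8251 genes with a named probe set. Both members were selected on the contrast between livers of mice on a high protein/low carbohydrate diet and livers of mice on chow, so that contrast is described below and not tested. Expression was measured in mouse liver on 10 Affymetrix arrays, which are 2 hybridisations of each of 5 RNA pools, and each pool mixed 20 µg of total RNA in equal parts from 5 male mice. The chow set held Scap-/-;MX1-Cre mice and the corresponding wild type, aged 10 to 12 weeks and fed Teklad chow. Every mouse of that set, wild type included, had received 4 injections of polyinosinic-polycytidylic acid, and its liver was taken 14 days after the last. The high-protein set held TgSREBP-1a mice, TgSREBP-2 mice and their littermate wild type, aged 12 to 16 weeks and fed the high-protein diet for 2 weeks. The transgenes encode the nuclear forms of human SREBP-1a and SREBP-2. They are driven by the promoter of phosphoenolpyruvate carboxykinase, and the diet raises that promoter's activity; all 3 pools received it. Mx1-Cre is induced through interferon and also recombines in cells other than hepatocytes.

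Metallothioneins are small, cysteine-rich proteins that bind zinc and copper in the cytosol. In liver, transcription of both genes rises when zinc enters the cell, through the zinc-sensing factor MTF-1 at metal response elements. Glucocorticoids, interleukin-6 acting through STAT3, fasting and oxidative stress also raise them, and the proteins hold back zinc that would otherwise leave the liver. SREBPs are membrane-bound factors that SCAP escorts from the endoplasmic reticulum to the Golgi, where their nuclear forms are released to drive cholesterol and fatty acid synthesis.

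In RefSeq's annotation of GRCm38.p6 the 4 mouse metallothionein genes lie in the order Mt4, Mt3, Mt2, Mt1 on chromosome 8, and Mt2 and Mt1 are direct neighbours on the same strand. The 250 bases before the annotated start of Mt2 are shown because the pair moved together in these pools and the metal response element is the control site both genes are known for. The window is chr8:94172368-94172617 on the plus strand of GRCm38.p6, from RefSeq, and capitals mark each match to the core of the metal response element.
Mt2 promoter window: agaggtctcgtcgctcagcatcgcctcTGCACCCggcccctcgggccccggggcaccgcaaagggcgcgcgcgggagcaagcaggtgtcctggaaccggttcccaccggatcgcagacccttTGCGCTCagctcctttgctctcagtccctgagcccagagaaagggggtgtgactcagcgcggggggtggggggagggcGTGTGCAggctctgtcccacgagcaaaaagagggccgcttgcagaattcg
For Mt1 a shorter stretch around its match is given, chr8:94179056-94179082 on the plus strand, since the start in the table lies inside the gene's annotated interval.
Mt1 metal response element core: ggtcccgctgTGCACACtggcgctcca

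The core was searched on both strands as TGCACNC or TGCGCNC, where N is any base. Mt2's window held 3 matches, beginning at positions -223, -128 and -50 from the start, the last on the reverse strand. Mt1's window, set by the start that lies inside the annotated interval, held 1, beginning at -23. At least 1 match was found in 21.4% of 32817 annotated mouse windows of the same length, and at least 3 in 1.26%. Mt2 also held the antioxidant response element core TGACNNNGC, which 10.2% of windows hold. Mt1 held 2 Sp1 boxes, GGGCGG, where 16.7% of windows hold as many. Neither window held the letters CACGTG (E-box, 6.02% of windows), TGTTCT (glucocorticoid receptor site, 16.1%), TTCNNNGAA (STAT site, 7.01%) or TCACCCCAC (sterol regulatory element core, 0.497%). The letters TATAAA, found in 12.4% of windows, were in neither. The windows follow annotated starts, and a match, or its absence from the window, describes letters and not binding. Mt1's window need not be the gene's main promoter, and bases outside it were not searched.

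**Figure D1:**
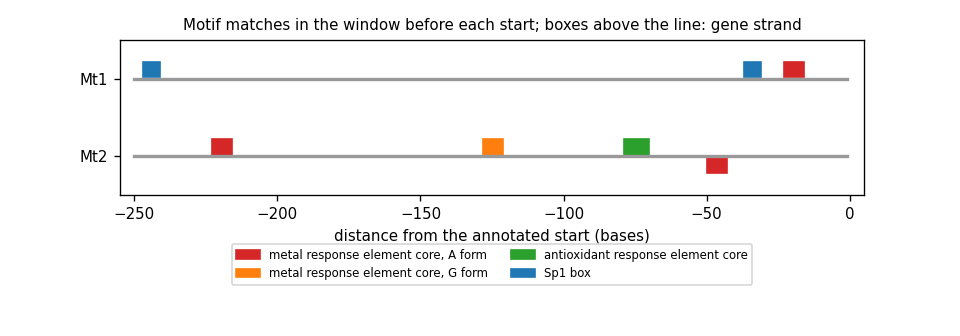
Positions of motif matches in the 250 bases before the annotated start of Mt1 and Mt2, with distance from the start in bases on the x axis and boxes below the line for the reverse strand. Mt2's window carries 3 metal response element cores and 1 antioxidant response element core. Mt1's window, set by a start inside the gene's annotated interval, carries 1 metal response element core and 2 Sp1 boxes.

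Values are the deposited log2 signals, on which a step of 1 is a doubling. Mt1 read 7.675 and 7.565 in wild type on chow and 8.528 and 8.453 in the Scap knockout. It read 12.794 and 12.826 in littermate wild type, 12.181 and 12.211 in TgSREBP-1a, and 12.716 and 12.761 in TgSREBP-2. All 6 arrays of the high-protein set were far above all 4 of the chow set, and no pool's arrays overlapped another's. The pool means were 7.62 ± 0.078 and 8.49 ± 0.054 on chow, then 12.81 ± 0.023, 12.20 ± 0.021 and 12.74 ± 0.032 for wild type, TgSREBP-1a and TgSREBP-2 (SD, n = 2 arrays of 1 pool each). On the linear scale these were 197, 360, 7182, 4692 and 6833 signal units.

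Mt2 read 7.976 and 7.961 in wild type on chow and 8.419 and 8.391 in the Scap knockout. It read 12.588 and 12.359 in littermate wild type, 11.845 and 11.847 in TgSREBP-1a, and 12.485 and 12.35 in TgSREBP-2. The split between the sets was the same as for Mt1, but the arrays of TgSREBP-2 and of its wild type overlapped. The means were 7.97 ± 0.011, 8.41 ± 0.020, 12.47 ± 0.16, 11.85 ± 0.0015 and 12.42 ± 0.096 (SD, n = 2), with the largest spread in littermate wild type. In linear signal units they were 250.4, 339, 5687, 3682 and 5469. The 2 arrays of a pool share their RNA, so every error and p-value here measures the spread between hybridisations and compares pools, not mice.

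**Figure D2:**
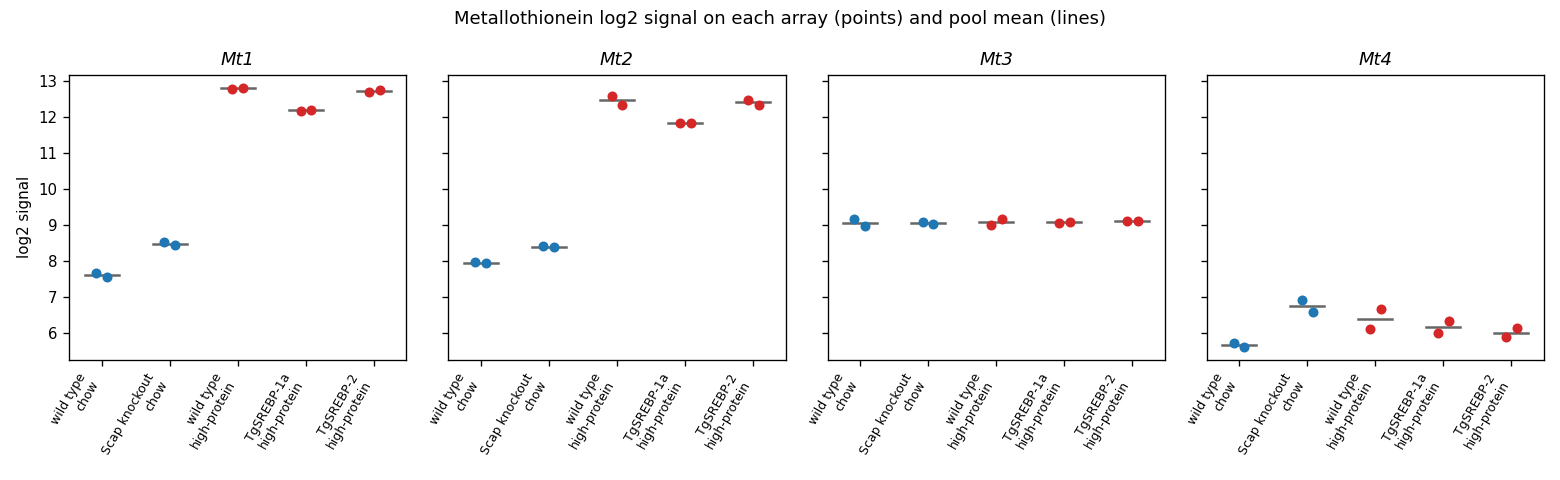
Deposited log2 signal (y axis) of the 4 metallothionein genes on each of the 10 arrays (points, blue for chow and red for the high-protein diet) with the pool mean (lines). Mt1 and Mt2 sit between 7.565 and 8.528 in the chow pools and between 11.845 and 12.826 in the high-protein pools, while Mt3 stays near 9.1.

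Both genes had the same order of levels, from wild type on chow through the Scap knockout, TgSREBP-1a and TgSREBP-2 to wild type on the high-protein diet. For Mt1 the steps between neighbours in that order were 0.87, 3.71, 0.54 and 0.07 log2 units, and for Mt2 they were 0.44, 3.44, 0.57 and 0.06. The step between the diet sets, from the Scap knockout to TgSREBP-1a, was 13-fold for Mt1 and 10.9-fold for Mt2. The last step, from TgSREBP-2 to wild type, did not differ beyond its error for either gene. The mean of the 3 high-protein pools was 4.53 log2 units above that of the 2 chow pools for Mt1 (23-fold) and 4.06 for Mt2 (16.7-fold). Between the 2 wild types alone the differences were 5.19 (36.5-fold) and 4.51 (22.7-fold).

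In the 3 against 2 contrast Mt1 and Mt2 ranked first and second of 8251 genes, which is how they were chosen. The next genes were Orm2 at 3.10 and Saa2 at 2.95, both acute phase proteins, then Cyp4a14 at 2.89 and Scd2 at 2.68. Further genes were Cyp4a10 at 2.30 and Pdk4 at 2.29. Calls in this report need an adjusted p under 0.05 (limma's moderated test, Benjamini-Hochberg over all 8251 genes) and at least a 1.5-fold difference. By that rule 1.61% of genes were higher and 2.9% lower in the 3 high-protein pools, and 1.28% were higher and 4.34% lower in littermate wild type than in wild type on chow. Diet, age, the injections, the mouse lines and the set of arrays all differ between the chow and high-protein pools and cannot be told apart.

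Within the high-protein set, the TgSREBP-1a pool had less of both transcripts than its wild type. Mt1 was lower by a log2 difference of -0.61 ± 0.08 (SE), 65.3% of the wild type signal with a 95% interval of 58% to 73.6% (limma, adjusted p = 0.000296). Mt2 differed by -0.63 ± 0.09, 64.7% of wild type with an interval of 56.2% to 74.6% (limma, adjusted p = 0.000878). Neither gene's arrays overlapped between the pools, and both genes were called lower, in a comparison where 2.59% of genes were called lower and 4.78% higher. They ranked 199th and 191st from the lowest difference. Without replicate 1 of the wild type, Mt2's difference was -0.51 and it was no longer called for size.

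The TgSREBP-2 pool did not show that difference. Mt1 differed from wild type by -0.07 ± 0.08 (limma, adjusted p = 0.687), with a 95% interval from -0.24 to 0.10, which is 84.5% to 107% of the wild type signal. Mt2 differed by -0.06 ± 0.09 (limma, adjusted p = 0.803), with an interval from -0.26 to 0.15, or 83.5% to 111%. Neither was called, where 2.18% of genes were called higher and 0.388% lower. The difference between the transgenic pools was tested directly. TgSREBP-1a stood below TgSREBP-2 by -0.54 ± 0.08 for Mt1 (1.46-fold, limma, adjusted p = 0.000962) and by -0.57 ± 0.09 for Mt2 (1.49-fold, adjusted p = 0.00217). The arrays did not overlap for either gene. Both differences were past the adjusted p and just under the 1.5-fold size, in a comparison where TgSREBP-1a had 2.24% of genes called higher and 2.95% called lower.

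Within the chow set, the Scap knockout pool had more of both transcripts than its wild type. Mt1 was higher by 0.87 ± 0.08, or 1.83-fold, with a 95% interval from 0.70 to 1.04 (limma, adjusted p = 0.00011), and was the 30th highest difference of 8251. Mt2 was higher by 0.44 ± 0.09, or 1.35-fold, with an interval from 0.23 to 0.64 (limma, adjusted p = 0.0312), and was 109th. Arrays of the pools overlapped for neither gene. Mt1 was called, in a comparison where 0.739% of genes were called higher and 0.921% lower, and Mt2 was past the adjusted p but under the 1.5-fold size. When single arrays were left out, Mt2's difference stayed at 0.42 to 0.45. It was past the adjusted p only in fits that kept both arrays of both chow pools.

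**Figure D3:**
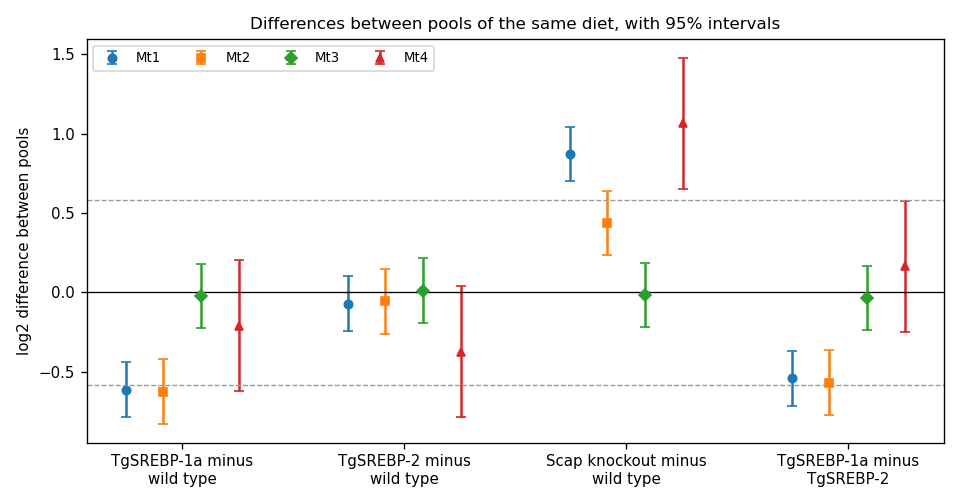
Log2 differences (y axis) between pools of the same diet for Mt1, Mt2, Mt3 and Mt4 in 4 comparisons, with 95% intervals as bars and dashed lines at 1.5-fold. Mt1 and Mt2 lie below 0 in TgSREBP-1a, near 0 in TgSREBP-2 and above 0 in the Scap knockout, and the intervals of Mt3 include 0 throughout.

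The pair did not move by quite the same amount. A level of one probe set cannot be set against that of another, so only the change in the Mt1 minus Mt2 difference between pools is read. That difference was -0.30 and -0.40 in wild type on chow, 0.11 and 0.06 in the Scap knockout, 0.21 and 0.47 in littermate wild type, 0.34 and 0.36 in TgSREBP-1a, and 0.23 and 0.41 in TgSREBP-2. Wild type on chow stood below the other 4 pools. The shift from there to the Scap knockout was 0.43, with no overlap, but 2 arrays against 2 cannot go below a two-sided exact permutation p of 0.333, which is the value it had. Between each transgenic pool and its wild type the shift was 0.01 and -0.02 (exact permutation p = 1 for both, arrays overlapping). Over the 5 pools Mt1 and Mt2 correlated at r = 0.998, a value set mostly by the gap between the diet sets. The coding sequences of the pair are close, and how far each probe set also detects the other transcript was not tested.

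The other 2 genes of the cluster did not show the pair's gap between the diet sets. In the 3 against 2 contrast Mt3 differed by 0.04 ± 0.06 (limma, adjusted p = 0.653) and Mt4 by -0.02 ± 0.12 (adjusted p = 0.927). Mt4 did go in the pair's direction in the Scap knockout and between the wild types. Mt3, a growth inhibitory factor known from brain, had means of 9.08, 9.06, 9.11, 9.09 and 9.12 in wild type on chow, Scap knockout, wild type on the high-protein diet, TgSREBP-1a and TgSREBP-2. None of its differences was called (limma, adjusted p = 0.898 for TgSREBP-1a, 0.967 for TgSREBP-2 and 0.993 for the Scap knockout). Mt4, known from stratified epithelium, read 5.741 and 5.629 in wild type on chow and 6.919 and 6.584 in the Scap knockout. It read 6.124 and 6.666 in littermate wild type, 6.014 and 6.358 in TgSREBP-1a, and 5.901 and 6.143 in TgSREBP-2. Mt4 was thus lowest in wild type on chow and highest in the Scap knockout, on arrays whose medians were 6.37 to 6.4. Its Scap difference was 1.07 ± 0.19 (limma, adjusted p = 0.0106), and it lost that call without replicate 1 of the Scap knockout or without either array of the wild type, with an adjusted p of up to 0.129. Its difference between the wild types, 0.71 ± 0.19 (limma, adjusted p = 0.0228), lost the call without either chow array or without replicate 2 of wild type on the high-protein diet.

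Calls in this and the following gene lists are set beside the shares of all genes called higher and lower. These shares were 4.78% and 2.59% in TgSREBP-1a, and 2.18% and 0.388% in TgSREBP-2. They were 0.739% and 0.921% in the Scap knockout, and 1.28% and 4.34% between the wild types. At these shares, 0 or 1 call among so few zinc genes is no result about them. Of 11 measured genes of a zinc list of 18 (Mt1 and Mt2 left out), none was called in TgSREBP-1a or in TgSREBP-2 against wild type (limma; 1 gene had an unadjusted p under 0.05 in each). Without replicate 1 of wild type on the high-protein diet, 1 was called lower in TgSREBP-1a and 1 between the wild types. In the Scap knockout and between the wild types only Mt4 was called, where 3 and 4 genes had an unadjusted p under 0.05. The list's median differences were -0.07, -0.01, 0.06 and 0.05 in the order TgSREBP-1a, TgSREBP-2, Scap knockout and wild types, against medians of -0.03, -0.02, 0.005 and 0.0095 over all genes. Mtf1, which encodes the zinc-sensing factor itself, had means of 7.60 and 7.60 in the chow pools and 7.76, 7.69 and 7.74 in the high-protein pools. Slc30a1, a zinc exporter and a textbook MTF-1 target, read 4.34 in wild type on chow and 4.48 in littermate wild type. The difference was 0.14 ± 0.11 (limma, adjusted p = 0.395). Both levels lie well below the array medians of 6.37 to 6.4, where the lowest deposited value was 2.681. At so low a signal a change can be missed. Over the 3 against 2 contrast Slc30a1 was higher by 0.25 ± 0.07 (limma, adjusted p = 0.0224), under the 1.5-fold size. Slc30a5, a zinc transporter of the secretory pathway, was lower in TgSREBP-1a by -0.48 ± 0.09 (limma, adjusted p = 0.00536), under the 1.5-fold size.

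Of 9 measured copper genes, 2 rose in TgSREBP-1a, where 4.78% of all genes were called higher. They were Atox1, a cytosolic copper chaperone, by 0.84 ± 0.10, and Cox17, which carries copper to cytochrome c oxidase, by 0.76 ± 0.11. The list's median in TgSREBP-1a was 0.004, against -0.03 over all genes, and a link to the lower Mt1 and Mt2 was not tested. In TgSREBP-2 only Slc31a1, the copper importer, was called, at 0.60 ± 0.13, and it lost the call in 8 of 17 alternative fits. None was called in the Scap knockout or between the wild types, where 1 and 3 genes had an unadjusted p under 0.05 (limma). Without replicate 1 of either wild type, 1 was called lower between the wild types.

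Lists for the other known inducers of metallothioneins were mixed. Of 15 measured genes of the glucocorticoid receptor and its targets, 4 rose and 4 fell in TgSREBP-1a. Of all genes, 4.78% were called higher and 2.59% lower there. Tat, a tyrosine-degrading enzyme, rose by 0.77 ± 0.11, while Pck1 and G6pc, both of gluconeogenesis, fell by 1.66 ± 0.12 and by 1.28 ± 0.08. Igfbp1 rose by 1.40 ± 0.14, a call lost when a gene's probe sets were averaged. In TgSREBP-2 and in the Scap knockout 1 gene rose and none fell (Cebpd and Cdkn1a), and each call was lost without single arrays. Of all genes, 2.18% and 0.739% were called higher in these comparisons. Between the wild types 4 rose on the high-protein diet, among them Fkbp5 and Pck1 (1.07 ± 0.12), and Sgk1 fell, with a median of 0.06. Of all genes, 1.28% were called higher and 4.34% lower there. Without replicate 1 of wild type on the high-protein diet, 2 fell.

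Of 23 measured genes of STAT3 and the acute phase, 8 rose and 1 fell (2 without replicate 1 of the high-protein pool) between the wild types, with a median of 0.51, and Stat3, Socs3, Saa2 (2.99 ± 0.12) and Orm2 (1.98 ± 0.08) were among those that rose. Of all genes, 1.28% were called higher and 4.34% lower between the wild types. Within the high-protein set the values went several ways. The shares of all genes called higher and lower there were 4.78% and 2.59% in TgSREBP-1a, and 2.18% and 0.388% in TgSREBP-2. In TgSREBP-1a 3 rose and 9 fell (median -0.50), with Saa2 at -1.37 ± 0.12 and Saa4 at -2.01 ± 0.14, but Orm2 rose by 2.08 ± 0.08. In TgSREBP-2, where Mt1 and Mt2 differed little from wild type, Saa2 rose by 1.19 ± 0.12 and Orm2 by 1.93 ± 0.08, and in all 4 rose and 3 fell. In the Scap knockout, where 0.739% of all genes were called higher, 1 of the 23 was called. It was Lcn2, an iron-siderophore binder of the acute phase, which rose by 2.53 ± 0.12. Over the alternative fits its difference ran from 1.22 to 2.60, and the call was kept.

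Of 20 measured NRF2 antioxidant genes, 5 rose and 3 fell in TgSREBP-1a, 2 rose and 1 fell in TgSREBP-2 (2 fell without replicate 1 of either pool), and 2 rose in the Scap knockout. Between the wild types 1 rose and 4 fell (median -0.12). The shares of all genes called higher and lower were 4.78% and 2.59% in TgSREBP-1a, and 2.18% and 0.388% in TgSREBP-2. They were 0.739% and 0.921% in the Scap knockout, and 1.28% and 4.34% between the wild types. At that share, 1 rise among 20 genes between the wild types is no result about the list. Gstm3, a glutathione transferase, rose by 2.14 ± 0.10 in TgSREBP-1a and by 0.95 ± 0.10 in the Scap knockout, and was lower by -0.89 ± 0.10 in littermate wild type. Nfe2l2, which encodes NRF2, had a difference of 1.44 ± 0.11 in TgSREBP-1a. Only 1 NRF2 gene was called in the Scap knockout when its replicate 2 or either wild type array was left out. Of 9 heat shock genes, Hspa8 rose by 0.74 ± 0.16 and Hspa1b fell by 0.66 ± 0.12 in TgSREBP-1a. At the shares above, 1 call each way among 9 genes is no result about heat shock genes. Hspa8 lost its call without replicate 1 of TgSREBP-1a or replicate 2 of wild type, and Hspa1b without replicate 2 of TgSREBP-1a. None was called in TgSREBP-2, the Scap knockout or between the wild types, where 1, 2 and 4 had an unadjusted p under 0.05 (limma). Without replicate 2 of wild type on the high-protein diet, 1 was called higher between the wild types.

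No probe set was named for Scap, and the transgenes are human, so the genotypes were read through their targets. Of 13 measured genes of cholesterol synthesis, 12 rose in TgSREBP-1a and 13 in TgSREBP-2 (medians 2.37 and 2.96), and 11 fell in the Scap knockout (median -2.02). Idi1, isopentenyl diphosphate isomerase, rose by 2.66 ± 0.09 in TgSREBP-1a and by 4.31 ± 0.09 in TgSREBP-2, and fell by 2.57 ± 0.09 in the Scap knockout. Mt1 was lower in TgSREBP-1a, near wild type in TgSREBP-2 and higher in the Scap knockout. Between the wild types, 11 of the 13 were lower on the high-protein diet (median -1.72). Of all genes, 4.78% were called higher in TgSREBP-1a and 2.18% in TgSREBP-2. In the Scap knockout 0.921% were called lower, and between the wild types 4.34%.

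**Figure D4:**
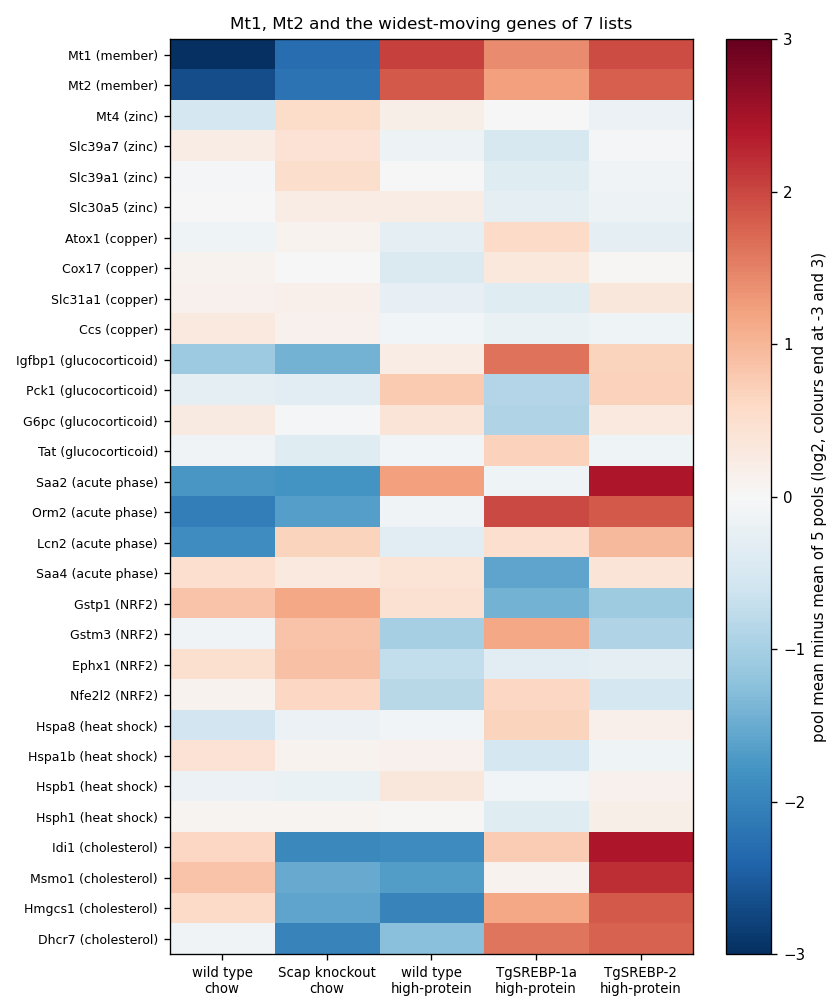
Pool means of Mt1, Mt2 and up to 4 widest-moving genes of each list, as log2 difference from the mean of the 5 pools (colour, ending at -3 and 3), with genes in rows and pools in columns. Mt1 and Mt2 are low in both chow pools and high in all 3 high-protein pools, a split that Saa2 and Igfbp1 share in part.

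Among 497 genes whose pool means spanned at least 1 log2 unit, the pattern most like the pair's, by Pearson correlation over the 5 pool means, was that of Tns2, a focal adhesion protein, at r = 0.994. Pdk4, a kinase that shuts off pyruvate dehydrogenase in fasting, followed at 0.975 and Tgoln1, a protein of the trans-Golgi network, at 0.972. The remaining 5 were Nupr1, a stress-induced nuclear protein, at 0.949, Grpel2 at 0.940, Lpin2 at 0.929, Myh8 at 0.921 and Saa2 at 0.905. Saa2 spanned 4.21 log2 units over the pools and Pdk4 2.60, against 5.19 for Mt1 and 4.51 for Mt2. The high-protein pools exceeded the chow pools by 0.92 for Tns2, 1.16 for Tgoln1 and 2.29 for Pdk4, against 4.53 for Mt1. In TgSREBP-1a against wild type the 8 went both ways, from -1.37 for Saa2, -0.59 for Nupr1 and -0.47 for Myh8 to 0.37 for Grpel2 and 0.63 for Lpin2. In the opposite direction stood Pdhb, a subunit of pyruvate dehydrogenase, at r = -0.995, Tsc22d1 at -0.987, the monooxygenase Fmo1 at -0.985 and Ifi35, an interferon-induced gene, at -0.979. With 5 pools in 2 diet sets, r mainly records which set a pool belongs to. A ranking by distance between the centred profiles kept 3 of the 8 most alike, with Saa2 first.

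**Figure D5:**
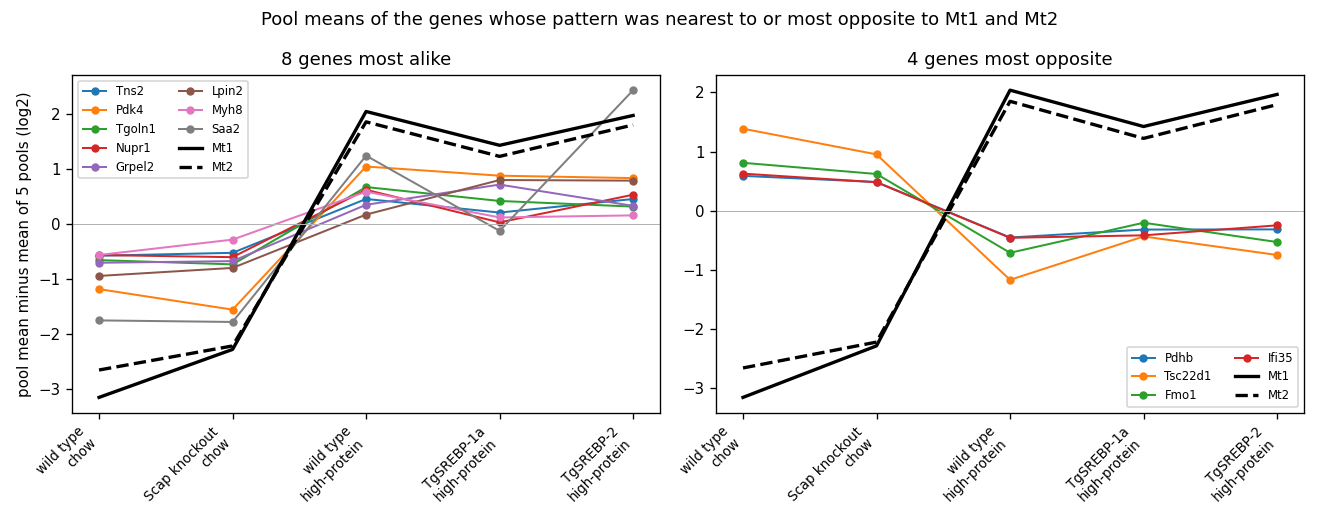
Pool means of the 8 genes most alike and the 4 most opposite to Mt1 and Mt2, as log2 difference from each gene's mean over the 5 pools (y axis) by pool (x axis). Mt1 and Mt2 (black) span 5.19 and 4.51 log2 units, and of the 12 genes shown Saa2 comes nearest in size.

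The cell makeup of the pools was read from marker lists, as the log2 of the summed linear signal on each array. In bulk RNA, fewer cells of a type and less RNA per cell cannot be told apart. The shares of all genes called higher and lower were 4.78% and 2.59% in TgSREBP-1a, and 2.18% and 0.388% in TgSREBP-2. They were 0.739% and 0.921% in the Scap knockout, and 1.28% and 4.34% between the wild types. The 6 hepatocyte markers summed to between 14.98 and 15.06 in all pools, a sum weighted to the brightest of them. Singly, Ttr (-1.37 ± 0.10) and Apob (-0.64 ± 0.13) were called lower in TgSREBP-1a, where the median of the 6 was -0.23, and 1 was called without replicate 1 of littermate wild type or replicate 2 of TgSREBP-1a. Ttr was also called lower in littermate wild type than in wild type on chow (-0.69 ± 0.10), a call lost when the arrays were quantile normalized again. Exocrine pancreas markers (8 measured, Prss2 and other digestive enzymes) were present and moved with the pools, at 13.06 to 13.10 in wild type on chow, 10.98 to 11.07 in the Scap knockout, 14.10 to 14.12 in littermate wild type, 10.59 to 10.61 in TgSREBP-1a and 14.54 to 14.57 in TgSREBP-2. All 8 were called lower in TgSREBP-1a and in the Scap knockout, and 7 were called higher in littermate wild type than in wild type on chow. The part of the pancreas and hepatocyte markers in the Mt1 and Mt2 differences was not tested. Macrophage markers (10 measured) summed to between 11.98 and 12.07 in wild type on chow, 11.94 and 11.96 in the Scap knockout, and 11.43 in littermate wild type. They summed to between 12.12 and 12.19 in TgSREBP-1a and between 11.80 and 11.91 in TgSREBP-2. Of the 10, 5 rose in TgSREBP-1a, 3 in TgSREBP-2 (1 without replicate 1 of TgSREBP-2) and none in the Scap knockout (2 with an unadjusted p under 0.05, limma, and 1 called lower without either TgSREBP-2 array, with the replicate block or in the fit within the chow set), and 4 were lower in littermate wild type than in wild type on chow (2 without replicate 2 of the latter). Single markers of further lists were called in TgSREBP-1a against its wild type. The medians of these lists there were 0.09 (endothelial), -0.06 (lymphocyte) and -0.20 (red cell). At the shares above, 1 call among 8 markers, or 1 each way among 3, is no result about a cell type. Of 7 endothelial markers Cdh5 (0.72 ± 0.12) and Lyve1 (1.09 ± 0.17) rose, and of 8 lymphocyte markers Ighm rose by 1.42 ± 0.08. Of 3 red cell markers Hba-a1 rose by 0.67 ± 0.08 and Alas2 fell by 0.62 ± 0.09, and their sum was 12.03 to 12.09 against 11.43 to 11.55 in littermate wild type. Cdh5 lost its call without replicate 1 of TgSREBP-1a, Ighm with its probe sets averaged (0.19), and Alas2 without replicate 1 of TgSREBP-1a or replicate 2 of its wild type. No neutrophil (8), stellate cell (7) or cholangiocyte (3) marker was called in that comparison, where 2, 4 and 0 had an unadjusted p under 0.05 (limma). Of the stellate markers, 1 was called higher without replicate 1 of TgSREBP-1a or replicate 2 of its wild type, and 1 lower without replicate 1 of its wild type. Some of these markers also moved elsewhere. Hba-a1 was called higher in TgSREBP-2 too, where the red cell sum was 12.16 to 12.18. Ighm was called lower in the Scap knockout and in littermate wild type against wild type on chow. Both calls were lost with its probe sets averaged. Alas2 was also called lower between the wild types.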

How the data were processed

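The authors' deposited values are log2 signals from RMA, per the submitters' processing notes, for 12488 probe sets on 10 arrays; the version of RMA is not given in the sources used here. The series' design text names Microarray Suite instead, whose signals are linear; the deposited values, 2.681 to 14.03, lie on a log2 scale and were taken as RMA's. Array medians lie within 6.37 to 6.4. The number of arrays limits the precision. Probe sets were named from GEO's platform annotation (10833 with 1 gene symbol, 396 with several, 1193 with none, 66 controls), and 10817 matched RefSeq by gene ID. For genes with over 1 probe set (2073) the one with the highest mean was used. limma 3.58.1 in R 4.3.3 fitted 5 pool means per gene (lmFit, eBayes, 5 residual degrees of freedom) with Benjamini-Hochberg adjustment over 8251 genes; the fit was tested on simulated data. Named genes were Mt1, Mt2, the 8 most and 4 least correlated genes, and the widest-moving genes of each list, up to 4; Mtf1, Slc30a1, Mt3, Fkbp5, Sgk1, Cebpd, Cdkn1a, Stat3, Socs3 and the next-ranked genes of the diet contrast were named after their values were seen. The members and lists were chosen with earlier results of these data known.

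Arrays of 1 pool correlated at 0.9921 to 0.9978 and none held identical values. Genes at least 1.5-fold apart between a pool's arrays numbered 151 for TgSREBP-1a, 101 for wild type on the high-protein diet, 55 for TgSREBP-2, 6 for the Scap knockout and 0 for wild type on chow. Same-numbered arrays deviated together within each diet set (r = 0.457 to 0.608 on the high-protein diet, 0.304 on chow), though what a number stands for is not labelled. Alternatives were leaving out each array, a replicate block, a fit within each diet set, renewed quantile normalization, averaged probe sets, a filter on low signal and other fold sizes.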

Additional observations from a re-analysis of the deposited data

How the results depend on the processing

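With a 2-fold size in place of 1.5-fold, Mt1 in TgSREBP-1a (-0.61), Mt1 in the Scap knockout (0.87) and Mt2 in TgSREBP-1a (-0.63) were no longer called, by construction. Genes called fell to 240, 72, 53, 185, 101 and 110, from 608, 212, 137, 428, 372 and 464, in the order TgSREBP-1a, TgSREBP-2, Scap knockout, TgSREBP-1a against TgSREBP-2, the 3 against 2 diet contrast and the wild types. No other alternative moved these counts by over 1.5 times. Leaving out single arrays gave ranges for Mt1 of -0.63 to -0.60 (TgSREBP-1a), -0.09 to -0.05 (TgSREBP-2), 0.82 to 0.93 (Scap knockout), -0.56 to -0.52 (between transgenic pools), 4.50 to 4.55 (diet contrast) and 5.14 to 5.25 (wild types). For Mt2 they were -0.74 to -0.51, -0.17 to 0.06, 0.42 to 0.45, -0.64 to -0.50, 4.02 to 4.10 and 4.39 to 4.62. Mt2 in TgSREBP-1a lost its call without replicate 1 of wild type on the high-protein diet (-0.51, limma adjusted p = 0.00721). Mt2 between the transgenic pools gained one without replicate 2 of TgSREBP-2 (-0.64), the lower of that pool's 2 arrays (12.35 against 12.485). A block by replicate number within each diet set cannot move a difference, since each pool has 1 array of each number (Mt1 in the Scap knockout stayed at 0.87). Only errors and p-values could move, and no member call changed. Of the 8 most similar genes, 7 were kept by correlation over 10 arrays and 3 by distance. With 2 arrays of 1 pool a group, spread between mice is not measured. Probe-set alternatives cannot move the members' values, since each has 1 probe set. The fit within a diet set could not be used for contrasts between the sets.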
